A study of Mus musculus with 4 samples.

Results

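The intervals described here hold a κB site, the DNA element bound by NF-κB, and no AP-1 site, among the accessible chromatin intervals that changed when cholesterol was removed from mouse macrophages. A rule on sequence alone, using no measured value, chose them from the intervals that the authors had called changed. The rule was set with earlier results of these data known. The GRCm38 sequence of each listed 201-bp interval had to match, on either strand, the loose 10-bp NF-κB consensus (3 G, a purine, 2 bases of any kind, 2 pyrimidines and 2 C). It also had to lack the 7-bp AP-1 palindrome, TGACTCA or TGAGTCA. The rule found 235 members among 3812 listed intervals, 6.16% of the table. A κB match was present in 339 intervals in all, so the members were 69.3% of the intervals with a κB match, and the other 104 held an AP-1 site as well.

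RAW macrophages, a transformed mouse macrophage line, were either left untreated (control, 2 samples) or given 5 mM methyl-β-cyclodextrin (MCD), an agent that extracts cholesterol from membranes, in bovine serum albumin for 1 hr (MCD, 2 samples). The labels and the ATAC-seq methods call the control untreated, while the study's general methods for these cells describe water in albumin medium as the negative control. Accessibility was measured by ATAC-seq, in which a transposase cuts and tags open DNA, and the comparison asked which parts of the chromatin opened or closed with MCD. The deposited table gives the mean of the 2 samples of each condition on a log2 scale for the intervals called changed by the authors, with no value per sample, so no spread between samples could be computed, no test was made, and neither the cell type's markers nor intervals that stayed level could be looked up.

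NF-κB is a family of dimers of Rel proteins that inhibitors of the IκB family hold in the cytoplasm of resting cells and that enter the nucleus after inflammatory signals. In macrophages these dimers bind κB sites at promoters and enhancers of cytokine, chemokine, survival and feedback genes. AP-1, a dimer of Jun and Fos proteins, is activated by many of the same signals and binds its own palindrome, often in the same enhancers.

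The sequences that open the description are those of the 10 members with the highest difference between the condition means, which include 3 of the 4 members at NF-κB subunit genes, that at the feedback gene Tnip1, and 3 of the 5 with the lowest difference, because they show what the rule selected. All are printed 5′ to 3′ on the plus strand of the RefSeq GRCm38.p6 genome, with each κB match, or run of overlapping matches, in capitals and 20 bases on each side in lower case. Matches on the minus strand alone therefore appear as the reverse complement of the consensus, and some words meet the consensus on both strands.
Prkch, chr12:73636912-73636961, minus-strand match: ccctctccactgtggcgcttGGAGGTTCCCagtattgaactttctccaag
Nfkb1 intron 6, chr3:135640335-135640384, minus-strand match: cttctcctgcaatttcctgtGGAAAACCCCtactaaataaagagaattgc
Bcl2l1, chr2:152825891-152825940, match on both strands: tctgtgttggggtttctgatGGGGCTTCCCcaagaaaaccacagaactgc
1700016G22Rik, chr13:5789539-5789588, plus-strand match: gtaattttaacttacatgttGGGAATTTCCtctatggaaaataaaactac
Nfkb1 intron 1, chr3:135670750-135670799, minus-strand match: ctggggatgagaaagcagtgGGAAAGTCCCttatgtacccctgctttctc
Chsy1, chr7:66185481-66185531, overlapping matches: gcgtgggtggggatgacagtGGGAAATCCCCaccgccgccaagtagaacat
Bcl2l11, chr2:128226686-128226735, plus-strand match: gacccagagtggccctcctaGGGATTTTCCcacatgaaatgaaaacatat
Ric8b, chr10:85038359-85038408, match on both strands: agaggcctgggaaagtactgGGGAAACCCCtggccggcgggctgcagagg
Ntn4, chr10:93698051-93698100, match on both strands: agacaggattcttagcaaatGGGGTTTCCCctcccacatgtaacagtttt
Rel, chr11:23754397-23754448, overlapping matches: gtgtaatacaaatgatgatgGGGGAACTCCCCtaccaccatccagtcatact
Tnip1, chr11:54972541-54972591, overlapping matches: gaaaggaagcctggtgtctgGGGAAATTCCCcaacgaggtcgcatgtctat
St6gal1, chr16:23346945-23346994, minus-strand match: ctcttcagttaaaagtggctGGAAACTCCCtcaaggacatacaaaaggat
Ly86, chr13:37322973-37323022, minus-strand match: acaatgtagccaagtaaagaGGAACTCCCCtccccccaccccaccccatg
Lipa, chr19:34490677-34490726, plus-strand match: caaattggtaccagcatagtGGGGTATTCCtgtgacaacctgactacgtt
The first 11 of these intervals gained accessibility and the last 3 lost it. A whole interval is given for the members at the NF-κB subunit genes that changed most, so that the bases around the match can be read. Near matches to AP-1, with 1 mismatch, are not marked, and the Nfkb1 intron 1 and Rel intervals each hold at least 1.
Nfkb1 intron 6, chr3:135640299-135640499: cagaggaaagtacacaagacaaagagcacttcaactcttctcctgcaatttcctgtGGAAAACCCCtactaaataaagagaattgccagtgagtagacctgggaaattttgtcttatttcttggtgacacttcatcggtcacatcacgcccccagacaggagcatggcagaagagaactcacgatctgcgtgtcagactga
Nfkb1 intron 1, chr3:135670605-135670805: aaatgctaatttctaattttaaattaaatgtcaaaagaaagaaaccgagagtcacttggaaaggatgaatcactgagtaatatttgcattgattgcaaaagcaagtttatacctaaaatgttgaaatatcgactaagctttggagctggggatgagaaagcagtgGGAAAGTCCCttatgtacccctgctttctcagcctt
Rel intron 3, chr11:23754365-23754565: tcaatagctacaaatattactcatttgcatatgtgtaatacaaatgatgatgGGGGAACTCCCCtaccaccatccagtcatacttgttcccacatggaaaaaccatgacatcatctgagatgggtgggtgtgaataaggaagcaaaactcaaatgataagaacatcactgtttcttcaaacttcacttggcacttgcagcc

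Of the 235 members, 193 had a higher mean with MCD than in control and are called gained, and 42 had a lower mean and are called lost. The gained members were thus 82.1% of the set, beside 73.2% of all listed intervals. The MCD mean was above the control mean by at least 1 on the log2 scale in 149 members (63.4%, beside 57.3% of all listed intervals). It was below by at least 1 in 19 members (8.09%, beside 12.5%). The median difference of the condition means, MCD minus control, was 1.24 on the log2 scale (quartiles 0.73 and 1.82, range −2.34 to 2.98), and that of all listed intervals was 1.14 (quartiles −0.65 and 1.64). Since an interval entered the table only when it was called changed, no member differed by less than 0.50 in either direction, and these shares are shares of changed intervals, not of κB sites in the genome.

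Levels are given below as the authors' mean normalized reads, the deposited log2 means turned back to a linear scale. The gained members started low, with a median of 31.3 reads in control and 86.8 reads with MCD. Their control levels ran from 5.90 to 187 reads and their MCD levels from 26.3 to 279.5 reads. The lost members started higher, with a median of 112 reads in control and 59.0 with MCD, and ran from 31.2 to 370.2 reads in control. A control level under 10 reads was seen in 23 gained members (11.9%) and in 0 lost members. Gained and lost are themselves defined from the control mean, and an interval this low had little room to fall. The 0 was therefore largely set in advance. The same order held over all listed intervals, where the gained ones had a median of 29.2 reads in control and the lost ones 114 reads, so the starting levels do not set the members apart from the rest of the table.

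**Figure D1:**
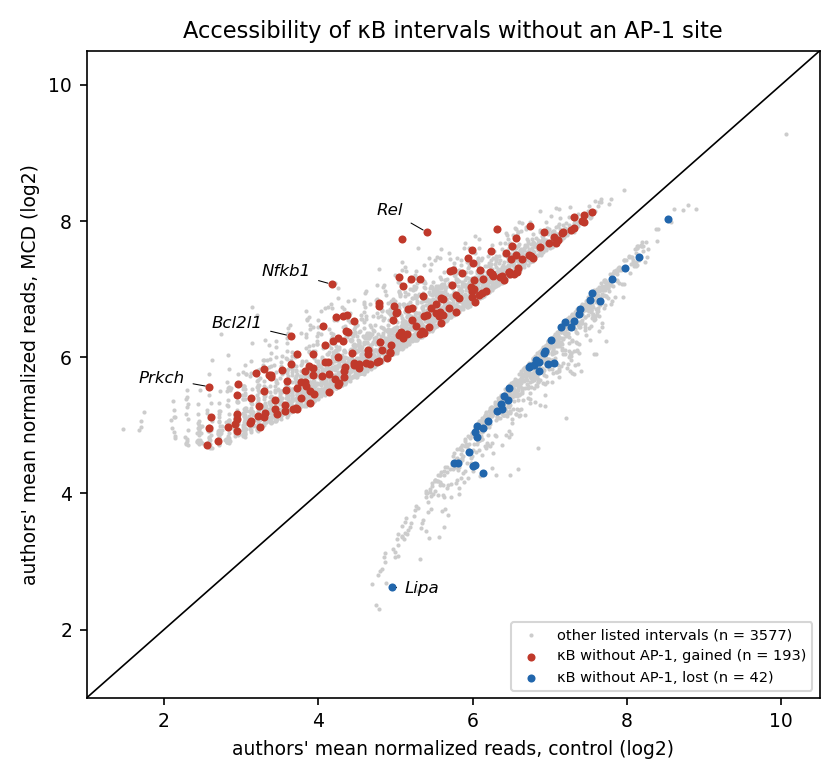
Authors' mean normalized reads (log2) in control (x axis) and with MCD (y axis) for each listed interval, with the diagonal marking equal means; red points are the 193 gained and blue points the 42 lost κB intervals without an AP-1 site, and grey points are the other listed intervals. The gained members lie above the diagonal with a median of 31.3 reads in control, the lost members lie below it at higher control levels, and the empty band along the diagonal is left by the listing of changed intervals only.

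The share of gained intervals differed with the motifs an interval held, whereas the size of the gain differed little. Among the 104 intervals with both a κB and an AP-1 site 101 gained (97.1%), and among the 1197 with an AP-1 site and no κB site 1180 gained (98.6%). Of the 2276 intervals with neither site 1316 gained (57.8%), so the 82.1% of the κB intervals without AP-1 lay between these values. Within the gained intervals the median difference was 1.43 for the members (quartiles 1.03 and 1.93), 1.44 with both sites, 1.39 with an AP-1 site alone and 1.39 with neither. Within the lost intervals it was −0.93 for the members and −0.97 for all listed intervals.

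**Figure D2:**
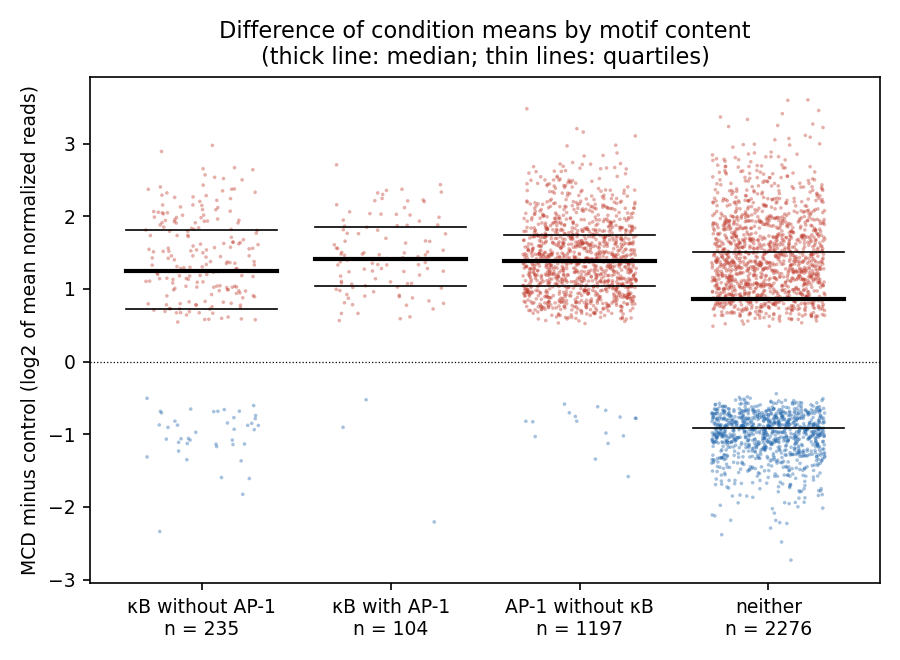
Difference of condition means (MCD minus control, log2) for every listed interval, grouped by the κB and AP-1 sites it holds; each point is an interval, red when gained and blue when lost, with the median as a thick line and the quartiles as thin lines. The 42 lost members form a visible lower cloud that the 2 groups with an AP-1 site nearly lack (3 and 17 intervals).

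A near match to AP-1 divided the members further. The 7-bp palindrome with 1 mismatch was present in 127 members (54.0%), beside 55.4% of the intervals with neither full site, and 118 of these members gained (92.9%, median difference 1.43). Among the 10 members with the highest difference, all but those at Prkch, Nfkb1 intron 6 and Ric8b held such a near match. The 108 members without even such a near match gained in 69.4% of cases, with a median difference of 0.86, a share below the 73.2% of all listed intervals, which include those with an AP-1 site. Intervals with neither full site showed the same order, with 70.0% gained among the 1262 that held a near match and 42.7% among the 1014 that did not. At either level of AP-1 resemblance the κB intervals therefore had the higher share of gained intervals, 92.9% against 70.0% and 69.4% against 42.7%. Base composition was also compared, because κB sites are rich in G and C and the median GC content was 49.8% for the members and 47.8% for all listed intervals. In the tertile of lowest GC content (cut at 45.3%) 89.8% of the members gained, beside 54.9% of intervals with neither site. In the middle tertile the shares were 79.5% and 55.3%, and in the tertile of highest GC content (cut at 50.7%) 80.5% and 63.4%.

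The κB sites themselves differed between gained and lost members. A stricter consensus, which asks for A or T at position 6 of the 10 bases, was met by 186 members, of which 161 gained (86.6%, median difference 1.31). The 49 members that met only the loose consensus gained in 65.3% of cases, with a median difference of 1.02. Read the other way, 83.4% of the gained and 59.5% of the lost members held a strict site. Members with 1 match numbered 184 (81.0% gained), those with 2 matches 46 (87.0%) and those with 3 matches 5 (80.0%). Most of these matches overlapped, as a κB word shifted by a base or so can match again. Separate, non-overlapping sites numbered 2 in only 13 members, of which 11 gained (84.6%), beside 82.0% of the 222 members with 1.

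The exact 10-bp words were also counted. Reading each site on the strand that matched, or on the alphabetically first one where both did, the most frequent words were GGGAAACCCC and GGGGAATTCC, each in 16 members, and 15 and 16 of these gained. The words GGGAATTCCC (8 members) and GGGGTTTTCC (11 members) were seen in gained members alone. The word GGGAACTTCC, which fails the strict rule, was in 8 members of which 4 gained. The word GGGACTTTCC, long known from the immunoglobulin κ enhancer that gave the site its name, was in 11 members of which 9 gained. These words were singled out after their counts were seen, and each count is too small for its share to be set against another.

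In all the members held 291 κB matches. The middle of 183 of these (62.9%) lay within 50 bp of the interval's centre, where 52.1% of the possible placements lie, and 93 (32.0%) lay within 25 bp, beside 26.0% of placements. Within 25 bp of the centre the share was 33.6% for gained and 24.0% for lost members, the latter from 12 of 50 matches. Only 13 matches (4.47%) lay in soft-masked repeats and 4 (1.37%) held a CpG.

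**Figure D3:**
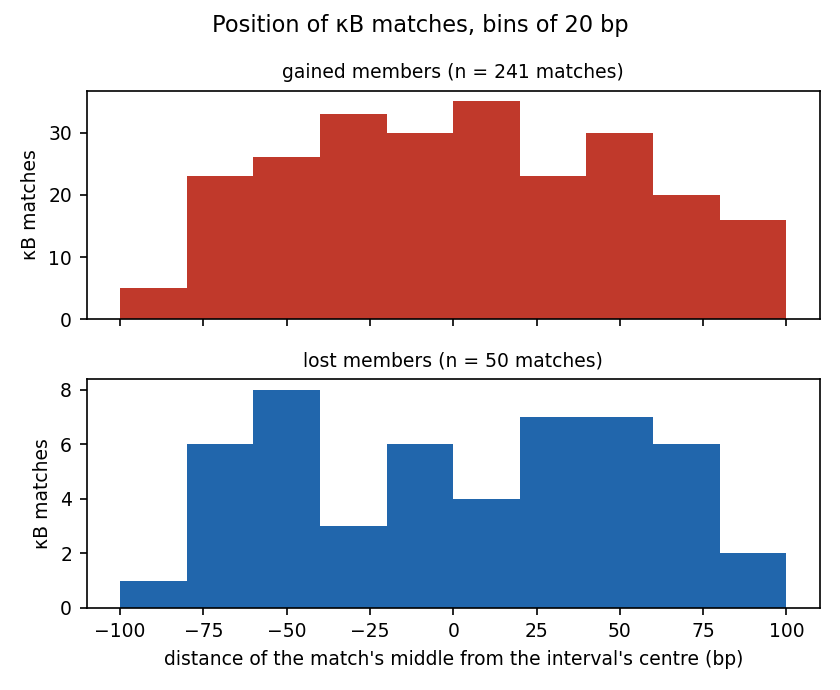
Number of κB matches (y axis, each panel with its own scale) by distance of the match's middle from the centre of its interval (x axis, bp, bins of 20 bp), for the 241 matches of gained members (top) and the 50 of lost members (bottom). The outermost bins hold few matches partly because a match must lie whole within the interval; matches of the gained members are spread over the interval with more near the centre, and the lost members have too few for a shape.

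Other factor consensus sites were counted in the members on both strands, and such matches may share bases with a κB match or with one another. The PU box GAGGAA, the core bound by the macrophage lineage factor PU.1, was in 58 gained members (30.1%) and 20 lost members (47.6%), beside 34.5% of all listed intervals. The ETS-IRF composite, to which PU.1 binds together with an IRF protein, was in 4 gained (2.07%) and 6 lost members (14.3%), beside 4.22%. The RUNX core TGTGGT was in 34 gained (17.6%) and 14 lost members (33.3%), beside 22.0%. These lineage-factor sites were thus more frequent in lost than in gained members. Intervals with neither a κB nor an AP-1 site showed the same for the PU box (30.8% of gained, 52.7% of lost) and the composite (2.28% and 8.96%), and less so for RUNX (21.7% and 24.8%).

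Sites of other factors were sparser. The GC box GGGCGG, bound by Sp1-family factors, was in 28 gained members (14.5%) and 3 lost members (7.14%), beside 7.79% of all listed intervals. Intervals with neither a κB nor an AP-1 site showed the same order for the GC box (11.6% of gained, 2.29% of lost). The STAT site TTCNNNGAA was in 15 gained (7.77%) and 0 lost members, beside 6.09% of all listed intervals. The E-box CACGTG was in 13 (6.74%) and 0, beside 4.35%, and the EGR site GCGTGGG in 11 (5.70%) and 0, beside 3.83%. With 42 lost members, a count of 0 (taken as up to 3 counts) allows a share of up to 7.14% by counting alone, so differences between gained and lost members in these 3 sites were hardly detectable. Among intervals with neither a κB nor an AP-1 site the STAT site was in 5.70% of gained and 6.15% of lost intervals, the E-box in 3.42% and 5.94%, and the EGR site in 5.70% and 0.52%. The C/EBP site TTGCNNAA was in 7.25% of gained and 7.14% of lost members, beside 12.3% of all listed intervals.

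**Figure D4:**
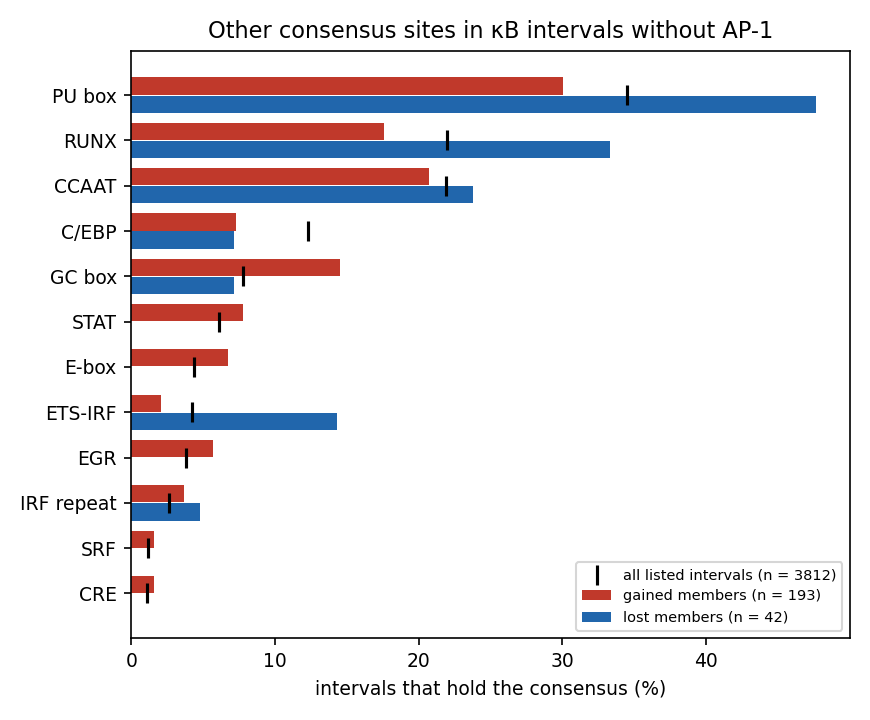
Share (%) of the 193 gained (red bars) and 42 lost members (blue bars) that hold each consensus, with the share of all 3812 listed intervals as a black tick. PU box, RUNX and ETS-IRF bars are longer for the lost members and the GC box bar for the gained members, and 5 sites are at 0 among the lost members.

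Most members lay away from promoters. Of the 235, 111 were in introns, 111 between genes and 13 in exons by GENCODE M21, and the median distance to the nearest annotated start of transcription was 12430 bp. Within 3 kb of a start lay 51 members (21.7%, beside 16.9% of all listed intervals), and 43 of these gained (84.3%). Their median difference was 0.92, against 1.31 for the 184 distal members, of which 81.5% gained. The promoter members were also higher in control, with a median of 67.9 reads beside 37.3 reads for the distal members. Another listed interval lay within 5 kb of 33 members (14.0%, beside 13.2% of all listed intervals) and within 50 kb of 124 (52.8%, beside 47.7%). An interval with an AP-1 site lay within 50 kb of 56 members (23.8%, beside 22.3%). For gained members neighbours were about as frequent as in the whole table, with 50.8% having one within 50 kb, beside 50.2% of all gained intervals. Lost members had them more often, 26 of 42 (61.9%), beside 41.1% of all lost intervals. Of 258 pairs of a member and a neighbour within 50 kb, 226 changed in the same direction (87.6%), beside 90.2% over all listed intervals. The share was 91.2% for gained members (94.0% for all gained intervals) and 68.3% for lost members (73.6% for all lost intervals). The 3 members at Nfkb1 supplied 42 of the 258 pairs, and without them 85.2% changed in the same direction.

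Among genes of the pathway itself, the NF-κB subunits stood nearest to 4 members, all gained. Nfkb1 encodes the p105 precursor that is processed to p50, and 3 members lay at it, more than at any other gene. The gene was nearest to 20 listed intervals, and members were 6.16% of all listed intervals. Part of this count was therefore due from the number of intervals alone. The member in its intron 6 (chr3:135640299-135640499) had 18.1 reads in control and 134 with MCD, a difference of 2.89. The member in its intron 1 (chr3:135670605-135670805) had 34.1 and 212 reads, a difference of 2.64. The member at its first exon (chr3:135691442-135691642) was already at 155 reads in control and reached 233, a difference of 0.59. The largest gains were therefore inside the gene, while the start site was high in both conditions.

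Nfkb1 was nearest to 20 listed intervals, and all 20 gained. The 17 without a κB site, 2 of them with AP-1, had a median of 13.1 reads in control and 47.3 with MCD, and their differences ran from 1.07 to 2.01 with a median of 1.71. The intron 6 and intron 1 members lay 51.1 and 20.8 kb downstream of the promoter start site. Their differences were higher than those of the 17 other intervals, and so were their MCD levels, since the highest of the 17 was 119.6 reads. The third member, at the first exon, had the lowest difference of all 20 intervals, 0.59.

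**Figure D5:**
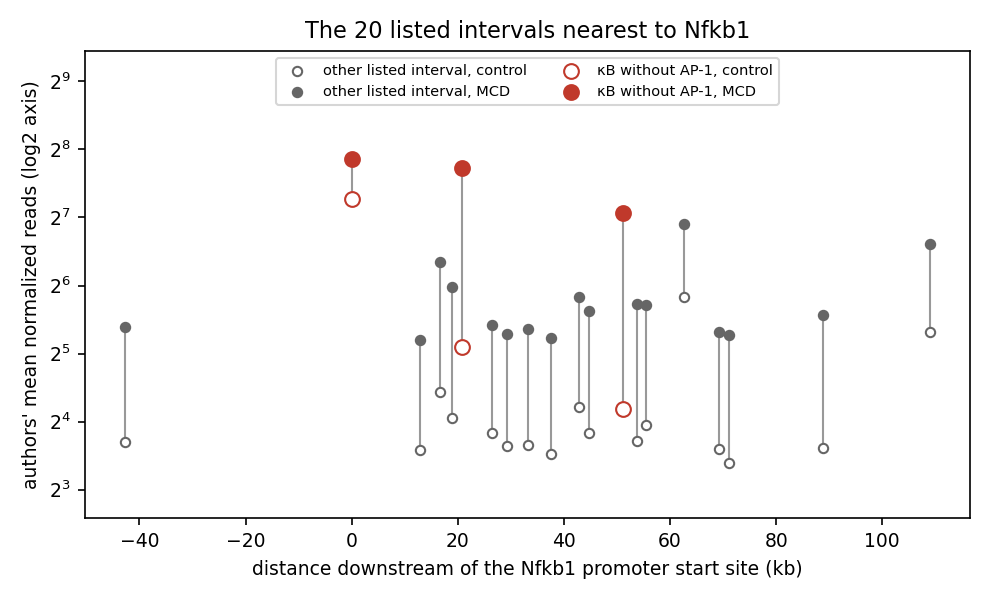
Authors' mean normalized reads (y axis, log2 axis) in control (open) and with MCD (filled) for the 20 listed intervals nearest to Nfkb1, by distance downstream of its promoter start site (x axis, kb); red marks the 3 κB intervals without AP-1 and grey the other 17. All 20 are higher with MCD, and the 3 red points have the highest MCD levels, 233, 212 and 134 reads. The red interval at the start site has the lowest difference of the 20, 0.59.

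Rel, which encodes the c-Rel subunit, had a member in intron 3 (chr11:23754365-23754565), 16405 bp downstream of its start, that went from 42.4 to 229 reads, a difference of 2.43. It held 3 overlapping matches. A second listed interval in Rel, with an AP-1 site and no κB site, went from 8.26 to 44.3 reads, a difference of 2.42, so both changed by a like factor from different levels. Of the 5 subunit genes the other 3 had no listed interval nearest to them.

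Among the IκB proteins and feedback inhibitors, 18 genes in the list, 8 had listed intervals nearest to them and only Tnip1 had a member. Tnip1 encodes a ubiquitin-binding partner of A20 that restrains NF-κB. Its member, 9577 bp upstream of the start, had 89.6 reads in control and 149 with MCD, a difference of 0.73. The other listed intervals nearest to Tnip1 held no κB site, and their differences were higher, 1.21, 1.51 and 1.37. The receptors and signal transducers, 47 genes with 26 listed intervals, had 0 members. Members were 6.16% of all listed intervals, so few were due among these 26 or the 21 intervals of the feedback list.

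Among the target groups, survival genes gave the largest differences. Bcl2l1, which encodes the anti-apoptotic protein Bcl-xL, had a member in intron 2 (chr2:152825804-152826004) with 12.5 reads in control and 79.4 with MCD, a difference of 2.67. Bcl2l11, which encodes the pro-apoptotic protein Bim, was the nearest gene to a member 98476 bp downstream of its start, with 9.80 and 56.9 reads, a difference of 2.54. The 2 proteins act in opposite ways on the same pathway of cell death.

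Chemokine genes had 2 members, both on chromosome 11. The one nearest to Ccl9 (7362 bp downstream) went from 12.1 to 50.1 reads, a difference of 2.05, and the one nearest to Ccl5 (4238 bp upstream) from 53.0 to 133 reads, a difference of 1.33. Both genes encode ligands that attract leukocytes. The member nearest to Il1a, which encodes interleukin-1α, was 20705 bp upstream of its start and went from 48.1 to 117 reads, a difference of 1.28. It was the only member assigned to the 24 cytokine genes. Their 25 listed intervals all gained, beside 73.2% of all listed intervals. Members were 6.16% of all listed intervals, so few were due among these 25. By protein-coding starts, however, a member nearest to Gm11959 (14.8 and 45.4 reads, difference 1.62) lay nearest to Lif, a cytokine gene of the interleukin-6 family, 32741 bp away.

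The remaining groups each had a single member. Ptgs2, which encodes the inducible cyclooxygenase of prostaglandin synthesis, was nearest to a member 97505 bp downstream with 20.5 reads in control and 83.9 with MCD, a difference of 2.04. Cd44, an adhesion receptor for hyaluronan, was nearest to a member 77604 bp upstream with 47.2 and 96.9 reads, a difference of 1.04. Junb, which encodes an AP-1 subunit, was nearest to a member 3798 bp upstream with 143 and 227 reads, a difference of 0.67. In all, 13 of the 235 members had 1 of the 185 listed genes as their nearest gene. So did 202 of all 3812 listed intervals, a like share, so members were not more often near these genes. All 13 gained, beside 73.2% of all listed intervals and 87.1% of the 202 intervals nearest to these genes. Assignment to the nearest start is not evidence that an interval acts on that gene.

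The member with the highest difference of all was in intron 1 of Prkch, which encodes a protein kinase C, and went from 6.02 to 47.4 reads, a difference of 2.98. Its single match met only the loose consensus. The other members among the highest 10 that are not in the lists were nearest to 1700016G22Rik (7.77 and 48.9 reads, difference 2.65), Chsy1 (9.19 and 54.6 reads, difference 2.57), Ric8b (6.10 and 35.0 reads, difference 2.52) and Ntn4 (7.73 and 43.8 reads, difference 2.50). Among protein-coding genes the start nearest to the first of these was that of Klf6, 71876 bp away, a zinc-finger transcription factor gene. All 5 had control levels under 10 reads, so their differences rest on low control means.

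Of the 5 members with 3 matches, 4 gained. Besides Rel these were nearest to Atp6v1e2 (18.2 and 75.8 reads, difference 2.06), Mpzl1 (12.0 and 46.0 reads, difference 1.94) and Nrp2, a semaphorin co-receptor gene (41.3 and 81.9 reads, difference 0.99). The 3-match member in intron 1 of Otulinl, the neighbour of the linear-ubiquitin hydrolase gene Otulin, was lost, with 166 reads in control and 99.2 with MCD, a difference of −0.74.

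The 42 lost members had no gene of the lists as nearest gene. Few lost intervals of the whole table did, as 176 of the 202 intervals nearest to these genes gained. The absence therefore does not set the lost members apart. The lowest difference, −2.34, belonged to a member 11130 bp downstream of a Lipa start, with 31.2 reads in control and 6.17 with MCD. Lipa encodes the lysosomal acid lipase that frees cholesterol from its esters, and by protein-coding starts the nearest gene was Ch25h, 15359 bp away, which encodes cholesterol 25-hydroxylase. The member nearest to Ly86, which encodes the MD-1 partner of the receptor RP105, was 22184 bp upstream and went from 70.1 to 19.8 reads, a difference of −1.83. Both matches of this pair of members lie in soft-masked repeats.

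The member in intron 5 of St6gal1, a sialyltransferase gene, had 65.2 and 21.4 reads, a difference of −1.61. A member at an Il16 start, the gene of a cytokine that acts through CD4, had 64.2 and 21.2 reads, a difference of −1.59, and Il16 was nearest to a second member that was lost as well. The fifth lay in intron 5 of Gpc6, nearest to a Dct start 401928 bp away, with 56.3 and 21.9 reads, a difference of −1.37. The PU box was present in 4 of these 5, all but the Il16 member.

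The members with the highest control means were also lost, though by less. A member in intron 1 of Serinc3, nearest to a start of 0610039K10Rik, had 370.2 reads in control and 261 with MCD, a difference of −0.50. Those in Cd101 (286 and 178 reads, difference −0.68) and Ehd4, an endosomal trafficking gene (251 and 159 reads, difference −0.66), followed. The strongest control intervals were therefore still well above the median MCD level of the gained members after their loss.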

How the data were processed

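ATAC-seq of RAW macrophages was analysed from a single table deposited by the authors, with 2 control and 2 MCD samples behind it. According to the study's methods and the labels' tool list, reads were aligned to GRCm38 with Bowtie2 2.4.4 after trimming, duplicates were removed, peaks were called with MACS (MACS3 3.0.0 in the submitters' processing notes, MACS2 in the methods) and compared with DiffBind. Per the file headers, the values are log2 mean normalized reads over all samples, over control and over MCD, pooled by the authors. The normalization and any shift of reads for the transposase's offset are not given in the sources used here, and a scaling error would move every difference alike. The deposited fold, p-value and FDR columns hold the authors' own comparison and were not used, beyond checking that each FDR was under 0.05.

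Sequences were read from RefSeq GRCm38.p6 at the deposited coordinates, and both consensus sites were scanned on both strands with Python 3.11.15, pandas 2.3.3 and numpy 2.4.6 code tested on simulated data with planted sites. Figures were drawn with matplotlib 3.10.9. Intervals were assigned to the nearest start among GENCODE M21 transcripts with an Entrez identifier, and introns and exons are those of the gene's longest transcript. The difference is the MCD mean minus the control mean. With condition means alone, no fit, test or error between samples was possible, depth per sample is unknown, and where nothing says that replicates came from separate cultures their spread could be technical. Genes were named by rule: the 10 highest and 5 lowest differences, members nearest to a gene of 9 lists of NF-κB pathway, target and AP-1 genes, genes with 3 or more members, members with 3 or more matches, and the 3 highest control means. The members, lists and rules were chosen with earlier results of these data known. Alternatives were the strict consensus, AP-1 with 1 mismatch, CRE, the central 100 bp, difference and level minimums, the transcript set and the promoter width, with GC tertiles, repeats and every annotated transcript added after seeing the data.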

Additional observations from a re-analysis of the deposited data

How the results depend on the processing

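The share of gained intervals was 82.1%, above the 73.2% of all listed intervals, and stayed above 73.2% under every alternative but 1. That 73.2% is over all listed intervals with no limit applied, so it is not a matched comparison for the alternatives. The members' share became 69.4%, below 73.2%, without members holding an AP-1 site within 1 mismatch (42.7% of intervals with neither full site and no near match gained). With a difference of at least 1 the members' share became 88.7%. At that limit 2184 of all listed intervals were gained and 476 lost. In the lowest GC tertile the members' share was 89.8%. The other 8 alternatives stayed within the 95% exact binomial interval of the share, from 78.6% with a mean of at least 5 to 86.6% with the strict consensus. That interval covers counting of intervals only, which are not replicates. The median difference, 1.24, became 0.86 without a near AP-1 match, 1.54 with a difference of at least 1 and 1.09 with a mean of at least 5, and stayed close to the main value under 4 others. The share of promoter members, 21.7%, became 11.5% within 1 kb and was 17.0% with protein-coding and 26.8% with every annotated transcript. The number of members became 186, 160 and 108 with the strict consensus, the central 100 bp and no near AP-1 match. The cause of each change was not tested, except that a minimum on the difference drops small changes and a narrower promoter holds fewer starts by construction.

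No paired analysis was possible because the table holds condition means and no values per sample. Leaving out a replicate, a replicate block and another scaling could not be run for the same reason. Low control means limit the precision of the largest gains, and by how much is unknown.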

Other observations

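The following genes were singled out after their values were seen. Apart from Nfkb1, 7 genes were each nearest to 2 κB intervals without an AP-1 site. Of pairs of a member and a neighbour within 50 kb, 87.6% changed in the same direction, so agreement does not set these genes apart. The 2 members changed in the same direction at all but Cd101, which encodes a surface glycoprotein of myeloid and T cells. There the member in intron 7 of Cd101 went from 286 reads in control to 178 with MCD, a difference of −0.68 on the log2 scale, while a member nearest to Cd101 but lying in intron 7 of Ptgfrn, its neighbour, went from 19.9 to 97.1 reads, a difference of 2.28. Both members of Peli1, which encodes a ubiquitin ligase of Toll-like receptor signalling, gained, from 17.6 to 44.8 reads and from 63.2 to 130 reads, and both lay upstream of the gene. Both members of Il16, of Ap1m1 and of Wdfy2 were lost, with differences from −0.69 to −1.59.

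Genes of NF-κB feedback also had changed intervals with no κB match. Over all listed intervals only 8.89% held a κB match, so the counts below do not set these genes apart. Nfkbiz, which encodes the nuclear protein IκBζ, was nearest to 8 listed intervals, all gained, of which only 1 held a κB match, together with an AP-1 site, and that one went from 48.4 to 98.2 reads, a difference of 1.02. The other 7 held neither site, and their differences ran from 1.27 to 2.58. At Tnfaip3, which encodes A20, and at Traf1, each nearest to 2 listed intervals, no interval held a κB match.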
